A study of Homo sapiens with 4 samples.

Results

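The regions described here are stretches of chromatin that were called open in Ishikawa cells under vehicle, under dexamethasone and under estradiol. Peaks of the 3 lists that shared at least 1 bp were merged on chromosomes 1 to 22 and X, and the members were chosen by their calls: a merged region had to contain a peak of every list. Of 8975 merged regions, 1640 met this rule (18.3%, exact 95% interval 17.5 to 19.1). Ishikawa is an established human endometrial adenocarcinoma line, and the cells had been kept for at least 4 days in medium without phenol red and with charcoal-stripped serum, a medium low in steroids. Treatment lasted 1 hour, with DMSO as vehicle, with 100 nM dexamethasone or with 10 nM estradiol, and a further library received 100 nM dexamethasone together with 10 nM estradiol. Each treatment had 1 library, made from 250000 cells. No spread between replicates could therefore be measured, and no test between treatments was possible.

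ATAC-seq uses a transposase that cuts and tags DNA where nucleosomes and bound proteins leave it exposed, and peaks of tags mark promoters, enhancers and other regulatory DNA. Dexamethasone is a synthetic agonist of the glucocorticoid receptor, and estradiol is the natural agonist of the estrogen receptor; both receptors are ligand-activated transcription factors that bind DNA largely at sites in open chromatin. In endometrial epithelium estradiol is known as a growth signal, and glucocorticoids are known to modify responses to it. Regions that stay accessible whatever the ligand are usually those held open by general promoter factors or by factors of cell identity. Gene neighbourhoods and DNA sequences of the members were not analysed here, because the positions are on the hg19 build and the annotation and sequence tables at hand are on another build.

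The 3 libraries differed in depth and in fragment length, which bears on every height below. After duplicate removal the vehicle library held 10694743 tags, the dexamethasone library 14980230 and the estradiol library 20185339, and the caller extended each tag to a modelled length of 104, 89 and 84 bp in that order. The product of tags and length, divided by the effective genome size of 2.7 Gb, gives the mean coverage, which was 0.412, 0.494 and 0.628 tags per base. The pileup, which is the number of extended tags over the summit of a peak, was divided by this mean to give the scaled pileup. A scaled pileup of 50 therefore means that 50 times the genome-wide mean coverage lay over the summit.

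The 1640 members took up very different shares of the 3 lists. They held 1656 of the 1914 vehicle peaks (86.5%, exact 95% interval 84.9 to 88.02), 1681 of the 4761 estradiol peaks (35.3%, 33.9 to 36.7) and 1648 of the 8419 dexamethasone peaks (19.6%, 18.7 to 20.4). Membership was thus set mostly by the vehicle list, which was the shortest of the 3. Another 2526 merged regions were in both hormone lists and missing from the vehicle list, 199 were in the vehicle and dexamethasone lists only, 21 in the vehicle and estradiol lists only, and 4589 in a single list. A region missing from a list was below the threshold of that library, which does not show that it was closed.

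Most members held a single peak of each library. More than 1 peak of the same library fell within 16 members for vehicle, 8 for dexamethasone and 41 for estradiol, and the highest of them was used. In 1632 of the 1640 members (99.5%) at least 1 base was covered by peaks of all 3 libraries. The other 8 were joined only through a chain of overlaps.

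The members were wide compared with other merged regions. Their median width was 262.5 bp (quartiles 212 and 329), against 180.5 bp for the 2746 regions in 2 lists and 118 bp for the 4589 regions in 1 list. A merged region of several peaks is at least as wide as its widest peak, so part of this order follows from the merging itself. The stretch covered by all 3 libraries had a median of 133 bp, and it made up a median of 56.1% of the merged region.

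Within the same members the peaks of the 3 libraries differed in length. The median was 158 bp in vehicle (quartiles 123 and 211.2), 192 bp in estradiol (143 and 258) and 249 bp in dexamethasone (195.8 and 316), although the modelled fragment was longest in vehicle. The median raw pileups of the members had the same order, with 19, 24 and 30 tags. How far the lengths follow from the pileups was not tested. The dexamethasone peak was the longest of the 3 in 1296 members (79.02%), the estradiol peak in 239 (14.6%) and the vehicle peak in 90 (5.49%), and the rest were ties. In 1161 members (70.8%) the vehicle peak lay wholly inside the dexamethasone peak, and the reverse held in 44 (2.68%). The caller keeps no peak shorter than the fragment length. Of the vehicle peaks, 155 stood exactly at that limit (9.45% of members), against 24 of the estradiol peaks (1.46%) and 3 of the dexamethasone peaks (0.183%). A length under 1.5 times the fragment was found for 800 vehicle peaks (48.8%), 263 estradiol peaks (16.04%) and 81 dexamethasone peaks (4.94%).

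**Figure D1:**
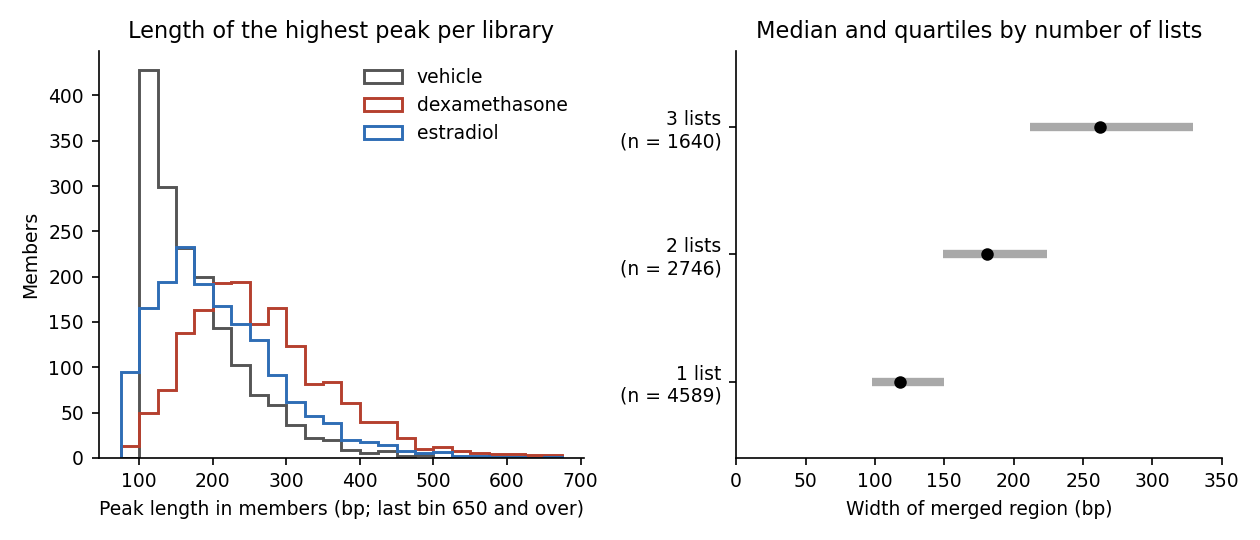
Left: number of members by length in bp of the highest peak in the vehicle, dexamethasone and estradiol libraries. Right: median (point) and quartiles (bar) of merged width in bp for regions in 3, 2 and 1 of the lists. Vehicle peaks crowd near their minimum of 104 bp, dexamethasone peaks have a median of 249 bp, and members have a median merged width of 262.5 bp.

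The 5 widest members show how the libraries drew a region. The widest, chr1:121484421-121485446, was 1026 bp, with peaks of 1015 bp in vehicle, 1015 bp in dexamethasone and 1008 bp in estradiol, so the 3 libraries drew nearly the same edges. At chr16:84047500-84048232, which was 733 bp wide, the vehicle peak was 655 bp, the dexamethasone peak 733 bp and estradiol had 2 peaks, the higher of 370 bp. At chr8:103251119-103251807 the lengths were 601, 644 and 392 bp, again with 2 estradiol peaks. The region chr19:54640736-54641411 had 278 bp in vehicle, 495 bp in dexamethasone and 248 bp in the higher of 2 estradiol peaks, and chr11:59383245-59383918 had 591, 674 and 614 bp. In the 4 members that follow the widest, the dexamethasone peak was the longest.

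Heights were spread over a narrow range. In vehicle the members had pileups from 10 to 93 tags, with a median of 19 and quartiles of 16 and 22. In dexamethasone they ran from 12 to 95 with a median of 30 (25 and 36), and in estradiol from 12 to 101 with a median of 24 (20 and 28). These are small counts, and a pileup of 19 tags carries a counting error of several tags. After scaling, the medians were 46.1 times the genome mean in vehicle, 60.8 in dexamethasone and 38.2 in estradiol. Of the 1640 members, 1554 (94.8%) had a geometric mean over the 3 libraries between 30 and 70, and 18 (1.1%) had one above 100.

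Members close to the middle of this range give the typical picture. At chr4:52709013-52709398 the pileup was 18 tags in vehicle, 27 in dexamethasone and 27 in estradiol. At chrX:129116295-129116649 it was 21, 25 and 25 tags in the same order, and at chr4:148605247-148605475 it was 19, 30 and 23. The raw counts of these members were highest with a hormone, but the estradiol library was also the deepest: after scaling, the estradiol value lay below the vehicle value at each of the 3, with ratios of 0.984, 0.781 and 0.794. In deposited fold enrichment, which divides by local background, the estradiol value was the higher one at both regions on chromosome 4 (10.5 against 8.57, and 11.5 against 10.8) and the lower one on the X chromosome (9.38 against 9.83).

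Scaled pileup was higher in the dexamethasone library than in the vehicle library at most members. The rule used these values, so the following is a description. The ratio of dexamethasone to vehicle had a median of 1.29 (quartiles 1.13 and 1.48), and it lay above 1 in 1476 of 1640 members (90%). Over all 1839 regions called in both lists, which include the members, 87.4% were above 1. Among the 199 of these that were not members, 132 were (66.3%, exact 95% interval 59.3 to 72.9). Those 199 were picked by the absence of an estradiol call, so the 2 shares are given side by side with nothing read from them. The median ratio lay above 1 on each of the 23 chromosomes, between 1.09 on chromosome 22, which had 5 members, and 1.35. With the deposited fold enrichment over local background in place of the scaled pileup, the median ratio was 1.23, and 1481 members (90.3%) were higher in dexamethasone. When the pileup was divided by tags alone, the median was 1.11.

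For estradiol the direction depended on the measure. The ratio of estradiol to vehicle in scaled pileup had a median of 0.82 (quartiles 0.716 and 0.933) and lay below 1 in 1371 members (83.6%). The 1661 regions called in both lists gave 83.6%, but all but 21 of them are the members themselves, and of those 21 the ratio lay below 1 in 17 (80.95%, 58.1 to 94.6). In deposited fold enrichment the median ratio was 1.06, and 1037 members (63.2%) were higher in estradiol than in vehicle. The local background itself, recovered from pileup and fold enrichment and divided by the genome mean, was lower in estradiol, with a median ratio of 0.861 to vehicle, and higher in dexamethasone, at 1.2. That background is an average over a window of 10000 bp that includes the region itself. No direction is therefore given for estradiol at the members.

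Dexamethasone above vehicle above estradiol was the order of scaled pileups in 1210 members (73.8%). In 259 (15.8%) dexamethasone was highest and estradiol next, and in 152 (9.27%) vehicle was highest and dexamethasone next. Vehicle was highest and dexamethasone lowest in 9 members, and estradiol was highest in 7 with dexamethasone next and in 3 with vehicle next. In scaled pileup dexamethasone exceeded estradiol in 1621 members (98.8%), with a median ratio of 1.59 (quartiles 1.39 and 1.79). The orders depend on the measure: in fold enrichment 797 members (48.6%) had dexamethasone above estradiol above vehicle, 481 (29.3%) had dexamethasone above vehicle above estradiol, and 203 (12.4%) had estradiol highest and vehicle lowest. Since both hormones are compared with the same vehicle library, the 2 ratios to vehicle share its error.

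For each member, an exact interval for the ratio of 2 pileups was set against 1, as a description. The rule used these pileups, and a ratio of 1 depends on the scaling by tags and modelled length. The interval lay wholly above 1 for dexamethasone against vehicle in 78 members (4.76%) and wholly below 1 in 0. For estradiol against vehicle it lay below 1 in 21 members (1.28%) and above 1 in 0. For dexamethasone against estradiol it lay above 1 in 502 members (30.6%) and below 1 in 0. Intervals that missed the median ratio of all members were found in 6 members for dexamethasone to vehicle and in 2 for estradiol to vehicle. Members were chosen by calls in these same libraries, so these counts cannot decide whether they share a common ratio. The intervals cover counting error only, and a count of 0 of 1640 allows a share of up to 0.183%.

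**Figure D2:**
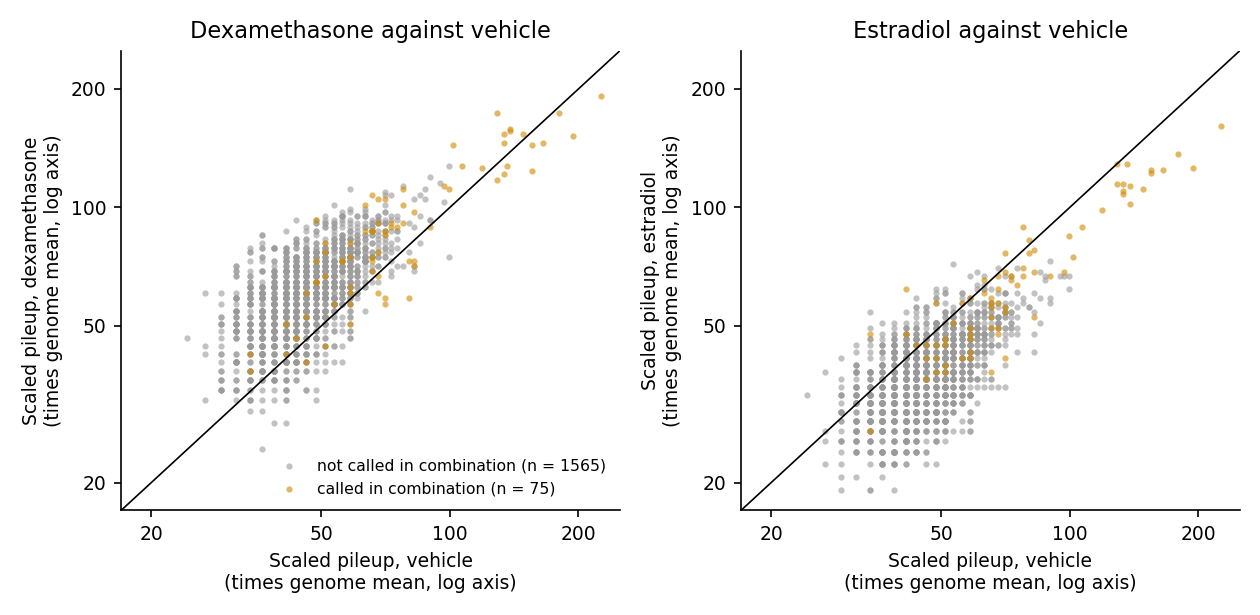
Scaled pileup of each member (times the genome mean, log axes) in the dexamethasone (left) and estradiol (right) library against vehicle, with the line of equal values; colour marks the 75 members also called in the combination library. Most points lie above the line for dexamethasone and below it for estradiol, and the highest members lie near or below it in both panels.

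The ratios at the extremes were examined in the 654 members with at least 20 tags in all 3 libraries. Picking the extremes of many ratios moves them away from 1 by itself, and the intervals take no account of the picking. The highest ratio of dexamethasone to vehicle was at chr10:106028711-106029020, with 20 tags in vehicle, 46 in dexamethasone and 23 in estradiol and a ratio of 1.92 (exact 95% interval 1.11 to 3.42). The same counts in vehicle and dexamethasone were found at chr11:108464308-108464608, where estradiol had 26. At chr13:107222846-107223159 there were 24, 55 and 32 tags (1.91, 1.16 to 3.23), at chr15:93425584-93425837 22, 50 and 31 (1.9, 1.13 to 3.29) and at chr5:168006621-168006955 20, 45 and 31 (1.88, 1.09 to 3.36). The ratios of estradiol to vehicle at these 5 were 0.754 to 1.02, and all 5 intervals held 1.

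The lowest ratios of dexamethasone to vehicle were less far from 1, and all 5 intervals included it. They were found at chr11:19262426-19262702 with 23 tags in vehicle, 20 in dexamethasone and 22 in estradiol (0.725, 0.378 to 1.38) and at chr4:49151693-49151859 with 33, 29 and 48 (0.733, 0.429 to 1.25). The next were chr18:108848-108974 with 41, 37 and 39 (0.753, 0.469 to 1.2), chr6:58778151-58778526 with 80, 75 and 79 (0.782, 0.563 to 1.09) and chr19:44079787-44079961 with 21, 20 and 20 (0.795, 0.409 to 1.54). The raw tag counts of dexamethasone were below those of vehicle in each of these 5. Because the dexamethasone library had the higher mean coverage, ratios this low require that, so the raw counts add nothing to the ratios.

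The highest ratios of estradiol to vehicle were modest, and none of their intervals excluded 1. At chr5:148345440-148345751 the pileups were 22 tags in vehicle, 45 in dexamethasone and 45 in estradiol, a ratio of 1.34 (0.789 to 2.35) for estradiol and of 1.71 (1.003 to 2.98) for dexamethasone. The others were chr3:99979541-99979854 with 20, 38 and 39 tags, chr11:130523748-130524015 with 20, 45 and 38, chr12:72057579-72057874 with 21, 47 and 39, and chr1:164528003-164528249 with 20, 39 and 37. Estradiol ratios were between 1.21 and 1.28 at these 4, and dexamethasone ratios were between 1.59 and 1.88. Both ratios were high at these members, and both divide by the same vehicle pileup, which was 20 to 22 tags, near the minimum of 20. A low vehicle count raises both ratios together, so nothing is read from their likeness.

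The lowest ratios of estradiol to vehicle had intervals below 1. These members were picked as the lowest of 654, so intervals that exclude 1 are no evidence of a difference. At chr7:155021969-155022257 there were 29 tags in vehicle, 50 in dexamethasone and 22 in estradiol (0.498, 0.272 to 0.897), and at chr6:10452144-10452395 there were 28, 38 and 22 (0.515, 0.281 to 0.934). At chr10:99446916-99447385 the counts were 34, 34 and 27 (0.521, 0.302 to 0.889), at chr12:33049946-33050229 25, 40 and 20 (0.525, 0.276 to 0.984) and at chr1:249167905-249168155 27, 35 and 22 (0.534, 0.29 to 0.975). Dexamethasone was above vehicle at 4 of these 5, the exception being chr10:99446916-99447385 (0.834).

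The 10 highest members could not be told apart between dexamethasone and vehicle at this depth: all 10 intervals of the ratio held 1. The highest of all by geometric mean, chr1:121484421-121485446, had 93 tags in vehicle, 95 in dexamethasone and 101 in estradiol, or 225.8, 192.4 and 160.8 times the genome mean. At chr1:569839-570015 there were 74, 86 and 86 tags, at chr6:58778151-58778526 80, 75 and 79, and at chr6:58777591-58777745 68, 72 and 78. At chr21:9827164-9827516 there were 53, 86 and 81 tags, and at chr10:42385098-42385282 64, 71 and 77. The last 4 of the 10 highest were chr21:9825923-9826433 with 61, 76 and 70 tags, chr21:9825478-9825830 with 57, 78 and 71, chr6:58778679-58779136 with 64, 61 and 78, and chr18:108162-108490 with 56, 63 and 81. In scaled pileup the ratio of dexamethasone to vehicle lay below 1 in 7 of these 10, the exceptions being the 3 regions on chromosome 21 (1.04 to 1.35), and it lay below 1 in 10% of all members. In fold enrichment 5 of the 10 were higher in dexamethasone and 5 were lower. Each of the 10 was also called in the combination library, where 4.57% of all members and 1.16% of all merged regions were.

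Many of these high members stood on a high local background. None was checked against a list of hg19 stretches that give high signal in any assay, and whether their heights mark open chromatin was not tested. In 9 members the vehicle background was at least 10 times the genome mean, where the median over all members was 2.52 times. They were the 4 members between 9825478 and 9827516 on chromosome 21, the 4 between 58777091 and 58779136 on chromosome 6, and chr1:121484421-121485446. The vehicle background had a median of 19.7 times the genome mean in the chromosome 21 group and of 24.6 times in the chromosome 6 group, and was 14.9 times at the chromosome 1 region. Their fold enrichments in vehicle were 4.86 to 13.1, against a median of 9.61 over all members. The median ratio of dexamethasone to vehicle was 0.913 in these 9 (range 0.782 to 1.35), and that of estradiol to vehicle was 0.799 (0.648 to 1.003), the latter close to the 0.82 of all members. Without the 9, the medians over members were 1.29 and 0.82, as before. Leaving out 9 of 1640 members can hardly move a median, so nothing is read from this.

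Over all members, the high ones included, the ratios were set beside height. Height is built from the same pileups as the ratios, and the strength of their relation was not measured. The members were ranked by geometric mean and divided into 10 groups of 164. The median ratio of dexamethasone to vehicle was 1.15 in the lowest group, rose to 1.38 in group 7 and was 1.26 in the highest. The estradiol ratio went from 0.757 in the lowest group to 0.843 in group 9 and 0.815 in the highest. Members of every height had to pass the threshold in vehicle, so the lowest group holds only regions whose vehicle value reached it. Width rose with height, from a median of 212 bp in the lowest group to 346.5 bp in the highest.

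**Figure D3:**
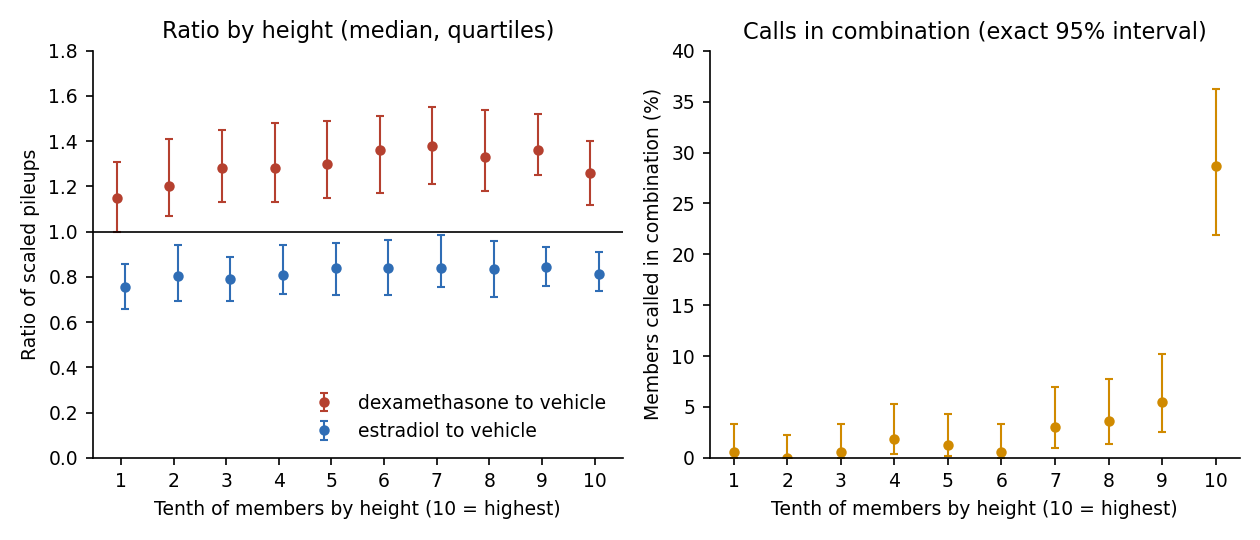
Left: median and quartiles of the ratio of scaled pileups to vehicle, in 10 equal groups of members ranked by height, with a line at 1. Right: percent of each group called in the combination library with its exact 95% interval; the share is 28.7% in the highest group and at most 5.49% in each of the others.

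The values of members and other regions near the limits of the rule were as follows. The members with the lowest geometric mean of −log10 p were chr16:31484193-31484443, with 13 tags in vehicle, 19 in dexamethasone and 13 in estradiol, chr6:43138767-43138970 with 17, 19 and 18, and chr22:24181175-24181495 with 13, 17 and 17. Just outside, the strongest regions in both hormone lists and missing from the vehicle list were chr9:103173970-103174186 with 37 tags in dexamethasone and 32 in estradiol, chr3:189794923-189795093 with 36 and 37, and chr21:38807526-38807715 with 29 and 31. The first 3 are the weakest members and the last 3 the strongest such non-members by choice, so their order is no result. Vehicle values of the last 3 are not given by a list of called peaks, and their distance from the vehicle threshold is unknown.

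Summit positions were compared between libraries within each member. The peaks of a member overlap by the rule, in regions with a median width of 262.5 bp, so short distances are in large part set by the choice, and the distances are a description. The vehicle and dexamethasone summits lay a median of 34 bp apart (quartiles 14 and 65), the vehicle and estradiol summits 34 bp (16 and 67), and the dexamethasone and estradiol summits 29 bp (12 and 62). A distance of at most 100 bp was found in 87.9%, 88.2% and 90.2% of members for these 3 pairs. All 3 summits fell within 50 bp of each other in 716 members (43.7%) and within 200 bp in 1580 (96.3%). The 2526 regions in both hormone lists and missing from the vehicle list had a median distance of 28 bp between the hormone summits, about that of the members, in narrower regions. Summit distance is limited by the small number of tags, and no pair of libraries stood apart from the others.

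**Figure D4:**
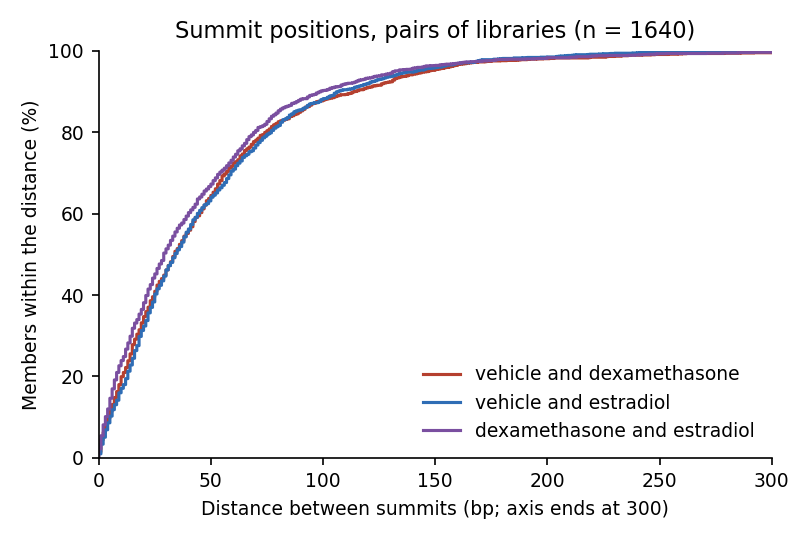
Percent of the 1640 members whose summits in 2 libraries lie within a given distance in bp, for the 3 pairs of libraries. The 3 curves run close together, with medians of 34, 34 and 29 bp.

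The combination library was not used to choose the members and so gives a separate readout. It was the shallowest, with 8240912 tags and a modelled fragment of 51 bp, and had 130 peaks on the same chromosomes. Of the 1640 members, 75 were called there (4.57%, exact 95% interval 3.61 to 5.7), where 1.16% of all merged regions were. Among regions in 2 lists the share was 14 of 2746 (0.51%, 0.279 to 0.854), and among regions in 1 list 15 of 4589 (0.327%, 0.183 to 0.539). The interval of the members did not overlap those of these 2 pooled sets. It did overlap those of 2 small classes with a vehicle call, the 21 regions of the vehicle and estradiol lists (3 called, 14.3%, 3.05 to 36.3) and the 37 of the vehicle list alone (2 called, 5.41%, 0.661 to 18.2). Counting error is all that these intervals measure, since regions are no replicates of a treatment.

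This difference went along with height. In the highest of the 10 height groups 47 of 164 members were called in the combination (28.7%, 21.9 to 36.2), and the other groups had between 0 and 9. Members were then set beside the regions in both hormone lists and missing from the vehicle list at like estradiol pileup. With up to 20 tags, 1 of 454 members (0.22%, 0.00558 to 1.22) and 0 of 1758 such regions (upper bound 0.21) were called in the combination. With 21 to 25 tags, 5 of 547 members (0.914%, 0.297 to 2.12) and 7 of 621 such regions (1.13%, 0.454 to 2.31) were. With 26 to 30 tags these were 16 of 373 (4.29%, 2.47 to 6.87) and 0 of 122 (upper bound 2.98), and with 31 or more 53 of 266 (19.9%, 15.3 to 25.2) and 4 of 25 (16%, 4.54 to 36.1). The intervals overlapped in each of these bands, but overlap does not show that the shares were equal. The 2 upper bands held only 122 and 25 such regions, so the counts cannot decide whether members differ at like estradiol pileup.

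The 75 members called in the combination differed from the other 1565 in several measures. Their pileups had medians of 28 tags in vehicle, 43 in dexamethasone and 38 in estradiol, against 19, 30 and 23. The ratio of dexamethasone to vehicle had a median of 1.14 (quartiles 0.971 and 1.31) and lay above 1 in 53 of 75 (70.7%, 59.02 to 80.6), where it had a median of 1.3 and lay above 1 in 1423 of 1565 (90.9%, 89.4 to 92.3) of the others. The ratio of estradiol to vehicle was nearly the same in both sets, with medians of 0.846 and 0.816. The 3 summits lay within a median span of 21 bp in the 75 and of 59 bp in the others, and another merged region stood within 10 kb of 32% (21.7 to 43.8) and of 17.1% (15.2 to 19.02). Their higher tag counts go along with these differences, and the part of those counts was not tested. In the combination library itself these members had pileups of 8 to 65 tags, with a median of 18.

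Members were spread over all 23 chromosomes, with unequal shares. The highest share of merged regions that were members was on chromosome 12, where 156 of 591 (26.4%, 22.9 to 30.1) were, followed by chromosome 14 with 69 of 300 (23%, 18.4 to 28.2) and chromosome 7 with 112 of 506 (22.1%, 18.6 to 26.01). The lowest were chromosome 22 with 5 of 78 (6.41%, 2.11 to 14.3), chromosome X with 20 of 182 (10.99%, 6.84 to 16.5) and chromosome 20 with 17 of 150 (11.3%, 6.74 to 17.5). The intervals of chromosomes 12, 14 and 7 lay above the overall 18.3%. Those of chromosomes 22, X and 20 lay below it, as did that of chromosome 9 (13.5%, 10.2 to 17.5). The 6 chromosomes named first were picked as the extremes of 23, and the intervals take no account of the picking. By length, taken as the furthest position called, chromosome 12 had 1.17 members per Mb and chromosome 19 had 1.02, against 0.542 over all chromosomes and 0.129 on the X chromosome. Chromosome 19 had the densest set of merged regions, 6.38 per Mb, but a share of members of 15.9% (12.4 to 20.01).

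Local background also differed by chromosome, and height went along with it. The median vehicle background of members was highest on chromosome 18 (3.11 times the genome mean) and chromosome 10 (3.05), and lowest on the X chromosome (1.41). The order was similar in dexamethasone, with 4.02, 3.65 and 1.8, and in estradiol, with 2.73, 2.73 and 1.24. The median geometric mean of scaled pileup was 54.6 on chromosome 18, 54.1 on chromosome 10 and 39.2 on the X chromosome. Across the 23 chromosomes the rank correlation of vehicle background and height was 0.8, as a description, and the 2 measures share tags, since the window of the background contains the peak.

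**Figure D5:**
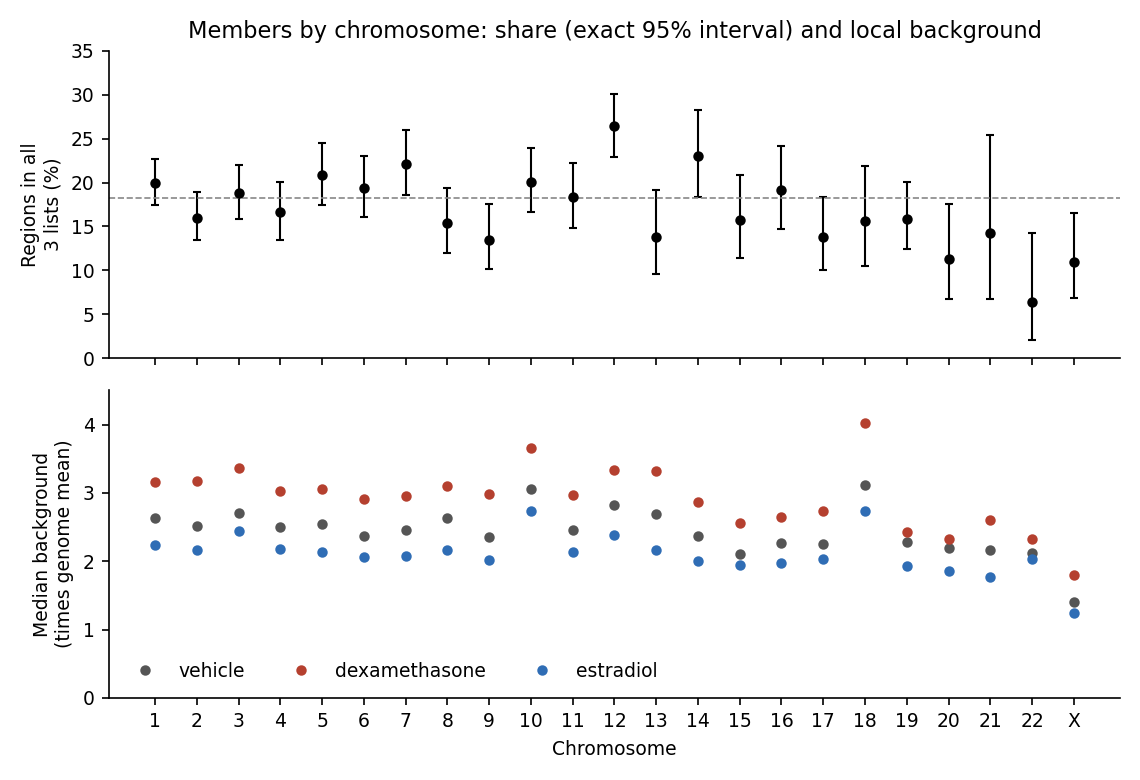
Top: percent of the merged regions of each chromosome that are members, with the exact 95% interval and the overall share of 18.3% as a dashed line. Bottom: median local background of members (times the genome mean) in the 3 libraries; chromosomes 10 and 18 are high in each library and the X chromosome is low.

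On a finer scale, members occurred in 292 of the 307 windows of 10 Mb that held any merged region, with a median of 5 per window. The window from 50 to 60 Mb on chromosome 12 held the most, 36 of 111 merged regions (32.4%, 23.9 to 41.97), and the window from 0 to 10 Mb on the same chromosome held 25 of 72 (34.7%, 23.9 to 46.9). Chromosome 10 had 18 members from 90 to 100 Mb and 18 from 100 to 110 Mb. From 240 Mb to the end of chromosome 1, 17 of 34 merged regions were members (50%, 32.4 to 67.6). These windows were picked from the 307 for their high counts, and the intervals take no account of that. The 10 fullest windows together held 193 members, so most members lay elsewhere.

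Members mostly stood alone. The nearest other merged region was a median of 54272 bp away, and the nearest other member 339128 bp. Another merged region lay within 10 kb of 291 members (17.7%, 15.9 to 19.7), close to the share among the 7335 non-members (17.4%, 16.5 to 18.3). For 122 of the 291 (41.9%) the nearest such neighbour was a region called with dexamethasone alone. It was one called with both hormones and not vehicle for 81 (27.8%), and another member for 60 (20.6%). These classes made up 44.99%, 28.1% and 18.3% of all merged regions, so the counts were close to the class sizes. Members within 10 kb of each other formed 32 groups, of which 29 were pairs. The largest groups were the 2 runs of 4 members on chromosomes 6 and 21 described above, which spanned 2046 and 2039 bp, and a run of 3 lay on chromosome 16 between 33953126 and 33963991. All 8 members of the 2 runs of 4, which stood on high local background, were called in the combination library. So were 2 of the 3 on chromosome 16, where 4.57% of all members were.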

How the data were processed

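The peak lists came from MACS 2.1.0.20140616, which the authors ran per the file headers on each library alone, with no control, a p cutoff of 1e-10 and 1 tag kept per position; the submitters' processing notes also name Bowtie 1.1.2 and hg19, with no role given. For the deposited pileup, a coverage signal, extended tags were counted at each summit. Fold enrichment, as deposited, is the ratio of that pileup to the expected local background, each with 1 added. The authors wrote p and q as −log10 values. Positions are the authors' own and count from 1.

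Peaks were merged and membership counted in Python 3.11.15 with numpy 2.4.6, pandas 2.3.3 and scipy 1.17.1, and the code was tested on simulated data with known overlaps. Local background was computed from pileup and fold enrichment. Shares carry 95% exact Clopper-Pearson intervals. A ratio of 2 pileups carries an exact binomial interval conditional on their sum. Intervals cover counting error only. Depth is given by the tags of each header. Named regions are the 10 highest by geometric mean of scaled pileup, the 5 highest and 5 lowest for each ratio to vehicle among members with at least 20 tags in each library, the 5 widest, the 3 nearest the median height, and 3 on each side of the limit. The members, lists and settings were chosen with earlier results of these data known. Alternatives were stricter peaks, a 50% overlap, lists of equal length, other scalings and members without neighbours. Shares near transcription starts, the gene lists and motifs were planned but not analysed here, since no annotation or genome of the build of the files was used. Mitochondrial and Y chromosome peaks were left out by the rule.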

Additional observations from a re-analysis of the deposited data

Results flagged for a closer look

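The rule for members left out the mitochondrial genome and the Y chromosome. Of the 12 merged regions there, 8 were called in all 3 lists, where 18.3% of the 8975 merged regions on the other chromosomes were. With only 12 regions, nothing is read from this difference. The 8 regions are given as a count only.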

How the results depend on the processing

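Of 41 alternative values for the 5 main results, 30 stayed within the interval of the main value (for the number of members, within 1.5 times), 10 moved and 1 reversed. Lists cut to the length of the vehicle list left 887 members with a median width of 286 bp, ratios of 1.37 for dexamethasone and 0.863 for estradiol to vehicle, and 8.12% called in the combination; fewer peaks entered by construction. Peaks with a −log10 q of at least 10 gave a dexamethasone ratio of 1.28. Pileup divided by tags alone gave ratios of 1.11 and 0.662, and fold enrichment gave 1.23 for dexamethasone and, reversed, 1.06 for estradiol. The cause of that reversal was not tested. The stretch covered by all 3 lists had a median of 133 bp. Leaving out the members called in the combination or those of high background, which was chosen after seeing the data, changed no direction. These were 75 and 9 of 1640 members, too few to move a median far, so nothing is read from this. Shares near transcription starts were not run. No paired analysis was possible because each group had 1 library. Pileups of 10 to 30 tags limit what single members can show.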
